A study of Mus musculus with 12 samples.

Results

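The 10 genes described here carry the main signals and structures of blood vessels: the ligand Vegfa with its receptors Kdr and Flt1, the ligand Apln with its receptor Aplnr, the ligands Angpt1 and Angpt2 with their receptor Tek, and the endothelial surface proteins Cdh5 and Pecam1. They were taken by name, and all 10 are among the 14159 genes listed in the deposited normalized counts. The libraries are from polyadenylated RNA of whole mouse inguinal white adipose tissue (iWAT), with 3 biological replicates, numbered 0 to 2, in each of 4 groups. The groups are Atf4WT mice at room temperature (RT), Atf4AKO mice at RT, Atf4WT mice after 24 h of cold exposure and Atf4AKO mice after 24 h of cold exposure. Both genotypes carry floxed Atf4 alleles (Atf4 fl/fl) on a C57BL/6 background, and Atf4AKO mice carry Adipoq-Cre in addition. The Adipoq promoter is active in adipocytes, so that the Atf4 gene of the vessel cells is not the target of this deletion. The comparisons ask how the vessel genes of iWAT respond to cold and whether that response differs when adipocytes lack Atf4.

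Blood vessels of adipose tissue carry heat, oxygen and fatty acids, and their growth accompanies the browning of white fat. Vegfa, released by adipocytes and other cells, acts on endothelial cells through Kdr, the main signalling receptor, while Flt1 binds the same ligand tightly and limits what reaches Kdr. Angpt1, made mainly by cells around the vessel, activates Tek and stabilises the vessel wall, and Angpt2 from endothelial cells can oppose it. Apelin, the peptide encoded by Apln, acts on the receptor Aplnr of endothelial and other cells. In whole tissue, fewer cells of a type and less RNA per cell cannot be told apart.

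By the GENCODE annotation of mm10, the genes lie on 8 chromosomes. Vegfa (NM_009505) occupies chromosome 17, positions 46016993 to 46032369, minus strand. Kdr (NM_010612) spans 75932827 to 75978458 and Flt1 (NM_010228) spans 147561604 to 147726011, both on chromosome 5, minus strand. Apln (NM_013912) occupies chromosome X, positions 48025146 to 48034853, minus strand, and Aplnr (NM_011784) chromosome 2, positions 85136225 to 85139923, plus strand. The ligand Angpt1 (NM_009640) occupies chromosome 15, positions 42424723 to 42676977, minus strand. Its exons share 737 bases with an antisense gene, Gm17473. Angpt2 (NM_007426) occupies chromosome 8, positions 18690263 to 18741562, minus strand, within Mcph1, a gene of the other strand with which it shares 0 exon bases. The strand setting of the counting is not given in the sources used here, so reads of Angpt1 and of its antisense partner cannot be told apart. Tek (NM_001290551) occupies chromosome 4, positions 94739289 to 94874976, plus strand. The junction gene Cdh5 (NM_009868) occupies chromosome 8, positions 104101625 to 104144511, plus strand, and Pecam1 (NM_001305158) chromosome 11, positions 106654217 to 106750628, minus strand.

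The sequences before the starts of Vegfa and Apln are shown because these ligand genes are the members that rose in cold-exposed Atf4AKO iWAT, and that of Flt1 because it is the window of the 3 that holds searched motifs. RefSeq start sites of GRCm38.p6 (the mm10 assembly) were available for 5 of the 10 members, in 6 windows. Each window printed covers the 250 bases before the start, 5′ to 3′ on the strand of the gene, and none of it lies in an annotated exon. The Vegfa window is chr17:46032378-46032627, the Apln window chrX:48034854-48035103 and the Flt1 window chr5:147726012-147726261, all on the minus strand. Capitals mark motif matches.
Vegfa: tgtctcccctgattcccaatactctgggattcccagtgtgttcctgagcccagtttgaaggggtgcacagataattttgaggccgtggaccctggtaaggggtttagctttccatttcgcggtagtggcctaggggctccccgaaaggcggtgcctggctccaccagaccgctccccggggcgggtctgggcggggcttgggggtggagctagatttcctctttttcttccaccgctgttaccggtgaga
Apln: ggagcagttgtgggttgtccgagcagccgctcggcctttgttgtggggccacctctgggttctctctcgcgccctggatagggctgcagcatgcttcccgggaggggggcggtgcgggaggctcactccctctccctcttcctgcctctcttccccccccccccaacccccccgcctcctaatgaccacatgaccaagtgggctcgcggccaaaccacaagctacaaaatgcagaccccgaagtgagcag
Flt1: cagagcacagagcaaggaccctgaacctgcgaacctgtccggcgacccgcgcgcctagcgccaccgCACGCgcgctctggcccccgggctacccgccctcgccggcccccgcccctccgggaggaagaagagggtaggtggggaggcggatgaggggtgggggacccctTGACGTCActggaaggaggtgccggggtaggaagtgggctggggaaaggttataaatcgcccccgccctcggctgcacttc
The motifs searched on both strands were the core of the hypoxia response element (ACGTG, with GCGTG as its other form), the core of the cAMP response element (TGACG), the ATF4 composite site (TGATGNAA) and the estrogen-related receptor element (AAGGTCA). In the Flt1 window, GCGTG is found on the opposite strand at bases -184 to -180, counted back from the start, where the capitals read CACGC. The same window holds TGACG at bases -81 to -77 and, on the opposite strand, at bases -78 to -74, which overlap in the run TGACGTCA. The printed Vegfa and Apln windows hold none of these letters. Another Vegfa start has a window that lies for 218 of its 250 bases in an annotated exon and is not shown. It holds GCGTG at bases -218 to -214 and, on the opposite strand, ACGTG at bases -211 to -207 and TGACG at bases -209 to -205. The Kdr window holds GCGTG at bases -131 to -127 and -89 to -85, and the Tek window holds no match. Over all 32851 promoter windows of the same length, 38.6% hold the hypoxia core, 17.8% the cAMP core, 3.45% the ATF4 site and 4.08% the estrogen-related receptor element. A match describes letters and is not a shown binding site.

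Atf4 itself was 4107 to 7644 normalized counts in Atf4WT and 788 to 1639 in Atf4AKO libraries, without overlap, and its log2 difference was -1.61 at RT (limma adjusted p = 0.0762) and -2.60 after cold exposure (limma adjusted p = 0.000644). Ucp1, the uncoupling protein gene of thermogenic adipocytes, was 204 to 1097 at RT and 73632 to 119558 after cold exposure. Between 25719476 and 29105147 reads per library fell on listed genes. The values are normalized counts, namely reads divided by the size factor of the library. Adipocyte markers were abundant in each library, with 8 of 8 listed. Of 28 endothelial junction and identity genes, 27 are listed, and their summed count overlapped between all groups, from 38715 to 52178 over the 12 libraries. Other cell types varied between libraries. Lymphocyte markers (9 of 10 for B cells and 10 of 10 for T cells) gave a mean log2 score of 3.85 to 7.23 in Atf4WT at RT and 7.43 to 9.89 in cold-exposed Atf4WT libraries. The score was 4.20 to 5.44 in Atf4AKO at RT and 3.48 to 5.15 in cold-exposed Atf4AKO libraries, so that it did not overlap between the cold-exposed genotypes. Markers of the endothelial venules and stroma of lymph nodes (3 of 7 listed) summed to 607 to 1623 normalized counts in cold-exposed Atf4WT libraries and to 107 to 528 in the other libraries. Skeletal muscle markers (5 of 8 listed) summed to 81505 normalized counts in Atf4WT RT replicate 2 and 29061 in Atf4WT cold replicate 0, against 72 to 3063 in the other libraries. The 8 fibroblast and progenitor markers summed to between 120493 and 181467 at RT and between 32914 and 84988 after cold exposure. They were lowest in Atf4WT cold replicate 1 and Atf4AKO cold replicate 1. Macrophage markers (7 of 8 listed) were lowest in these 2 libraries too, at 11459 and 4276 against 17319 to 31898 in the other libraries. The smallest value of a library over all listed genes was between 0.919 and 1.13, so that no listed gene is at 0 in any library. That the listed markers are above 0 therefore does not show that their cell types were present, and markers that are not listed cannot be judged. The results that change when these 4 libraries are left out, 2 at a time, are given beside the genes.

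Counts scaled to exon length allow levels to be compared between genes. In Atf4WT iWAT at RT, the order per kb of merged exon was Vegfa at 2122, Cdh5 at 1368, Pecam1 at 885, Kdr at 527 and Tek at 418 normalized counts per kb. Below these came Angpt1 at 264, Aplnr at 259.7, Flt1 at 197, Apln at 103 and Angpt2 at 42.3. The ranges of the 3 libraries overlapped between Angpt1 and Aplnr and between no other neighbours in this order. After cold exposure in Atf4WT mice, Vegfa stood at 2994 per kb, above Cdh5 at 947, and the ranges of Cdh5 and Pecam1 now overlapped. The lower members drew together in these libraries. Flt1 at 162, Angpt1 at 156, Apln at 139 and Aplnr at 124 per kb followed each other with overlapping ranges, and Angpt2 at 49.9 lay apart below them. In cold-exposed Atf4AKO iWAT, Vegfa reached 3542 per kb and Angpt2 was lowest again, at 49.7 per kb.

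After cold exposure the ligand gene Angpt1 and the receptor gene Aplnr were called lower in both genotypes. The junction gene Cdh5 was called lower in Atf4WT iWAT, and the ligand genes Apln and Vegfa were called higher in Atf4AKO iWAT. The call of Aplnr in Atf4AKO was at the edge of the threshold (limma adjusted p = 0.0478), with overlapping groups. Cdh5, Apln and Vegfa had the same direction in the other genotype without a call. No difference between the responses of the genotypes was called for a member. A gene was called when limma's Benjamini-Hochberg adjusted p over the 13404 tested genes was under 0.05, and all 10 members passed the filter, a mean of 10 normalized counts, and were tested. In Atf4WT iWAT, 3 members were called, all lower in cold (Aplnr, Angpt1 and Cdh5). By limma, edgeR or DESeq2, 0 were called higher, with 1 (Vegfa) higher at an unadjusted limma p under 0.05. Of all tested genes, 31.9% were called in this comparison, 17.0% as higher and 14.9% as lower. In Atf4AKO iWAT, 4 members were called, with Apln and Vegfa higher and Aplnr and Angpt1 lower. Here 25.9% of all genes were called, 14.8% as higher and 11.0% as lower. In Atf4WT the members' count lies near the background of all genes, and with 10 members neither count was tested against it. At the threshold the study used for differentially expressed genes, a fold change over 1.5 with an unadjusted p under 0.05, 2 members passed in Atf4WT against 21.2% of all genes, and 3 passed in Atf4AKO against 17.2%. The median log2 fold change of the members was -0.23 in Atf4WT and -0.094 in Atf4AKO mice, against 0.0026 and -0.032 over all tested genes. In Atf4WT, all cold libraries lay above all RT libraries for 1 member and below them for 4, against 23.9% and 22.9% of all tested genes. In Atf4AKO this was so for 3 members above and 2 below, against 21.7% and 19.9%. A lack of overlap between cold and RT was thus common among all genes (46.8% in Atf4WT and 41.7% in Atf4AKO). Fold changes are on the log2(normalized count + 1) scale throughout.

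**Figure D1:**
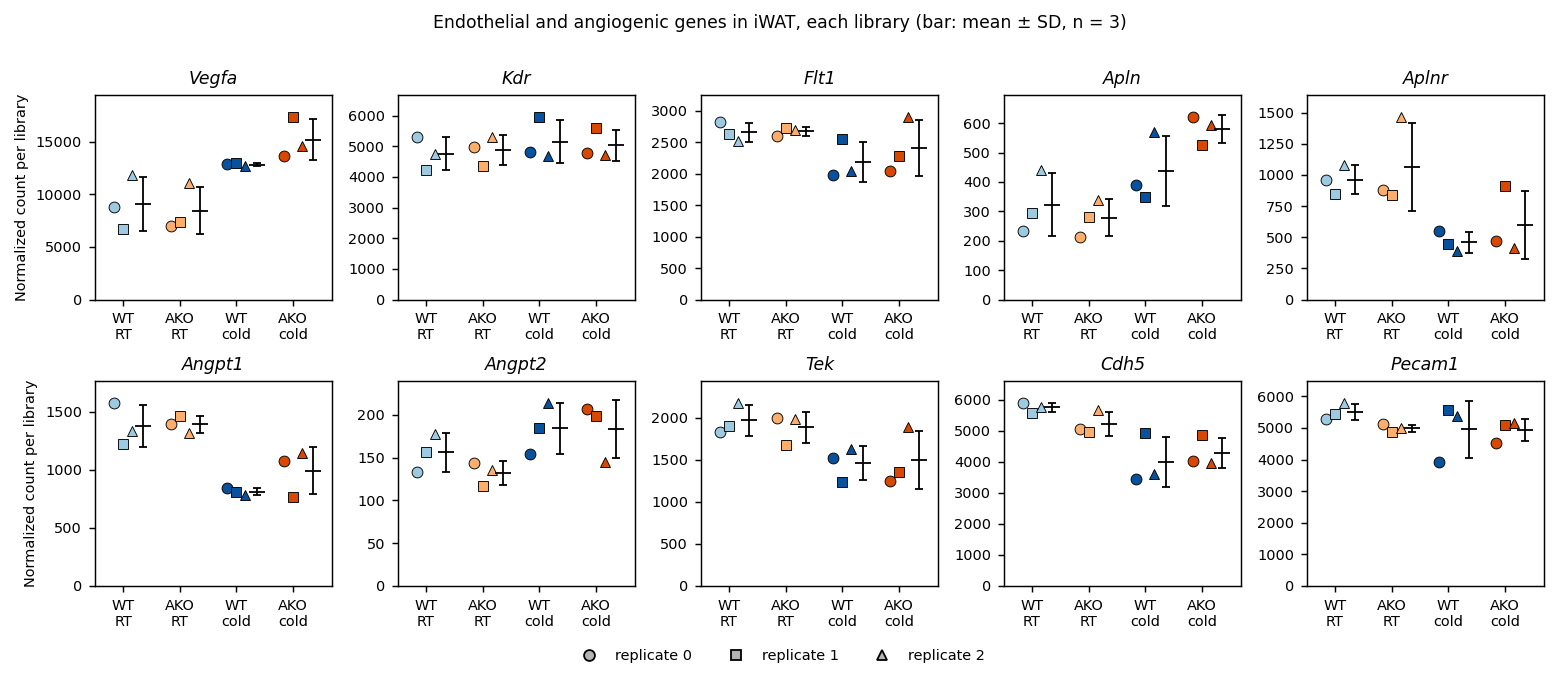
Normalized counts (vertical axes, linear from 0) of the 10 genes in each of the 12 libraries, by group (WT, Atf4WT; AKO, Atf4AKO), with symbols for the replicate and bars for mean ± SD (n = 3). Vegfa lies at or above 12659 in all 6 cold-exposed libraries and Angpt1 at or below 1140.0 in them, whereas Kdr overlaps between all groups.

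**Figure D2:**
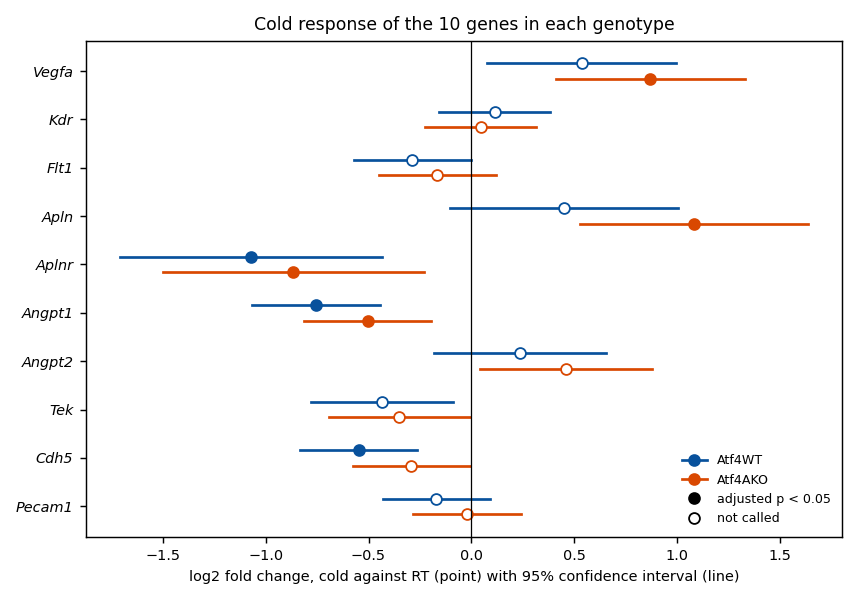
Log2 fold changes of cold against RT (horizontal axis) with 95% confidence intervals for the 10 genes in Atf4WT and Atf4AKO iWAT, with filled points for genes whose limma adjusted p was under 0.05. Aplnr and Angpt1 are filled in both genotypes, Cdh5 only in Atf4WT, and Apln and Vegfa only in Atf4AKO, and the intervals of the genotypes overlap for each gene.

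Vegfa, the growth factor that drives sprouting of vessels, had normalized counts of 8783, 6695 and 11804 in Atf4WT libraries at RT and of 12902, 12927 and 12659 after cold exposure. Each cold library lay above each RT library, and the cold libraries lay close together (12829 ± 148, SD, n = 3) while those at RT did not (9094 ± 2569). The log2 fold change was 0.53 (standard error 0.21), which did not pass the adjusted threshold (limma adjusted p = 0.0719). In Atf4AKO iWAT the counts were 6948, 7350.2 and 11050.2 at RT and 13600.2, 17366 and 14569.9 after cold exposure. Here too the groups did not overlap, and Vegfa rose by a log2 fold change of 0.87 (standard error 0.21, limma adjusted p = 0.0116), which is a 1.83-fold rise. In both genotypes, replicate 2 at RT held the highest RT value. In Atf4WT this is the library with most muscle reads, and without it the log2 fold change was 0.74 (limma adjusted p = 0.0194), as it was without both muscle-rich libraries (limma adjusted p = 0.0406). It was also past the threshold without Atf4AKO RT replicate 2 (limma adjusted p = 0.0396), a library that enters only the shared estimate of spread. Over all removals of 1 library, the log2 fold change in Atf4WT ran from 0.33 to 0.74 (limma adjusted p from 0.0194 to 0.256). With edgeR, Vegfa in Atf4WT was not past an unadjusted p of 0.05. In Atf4AKO the call was lost without Atf4AKO RT replicate 0 (0.74, limma adjusted p = 0.0512) and without the 2 libraries low in macrophage and fibroblast reads (0.77, limma adjusted p = 0.0575).

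Kdr, the signalling receptor for VEGF-A, was 5286, 4225 and 4755 in Atf4WT at RT and 4806, 5962 and 4688 in the cold, with overlapping groups. In Atf4AKO mice it was 4981, 4357 and 5300.1 at RT and 4773, 5609 and 4721 in the cold. Its log2 fold changes were 0.11 (95% interval -0.16 to 0.38, limma adjusted p = 0.510) and 0.045 (-0.22 to 0.32, limma adjusted p = 0.814), so that a change beyond 0.38 in either direction lay outside both intervals. Flt1, the decoy receptor, was 2827, 2635 and 2524 in Atf4WT at RT and 1975, 2556 and 2049 in the cold. Atf4AKO libraries had 2598, 2736 and 2693 at RT and 2038, 2288 and 2908 in the cold. One cold library of each genotype lay within or above the RT values, and the log2 fold changes were -0.29 (limma adjusted p = 0.112) and -0.17 (limma adjusted p = 0.368). Without Atf4WT cold replicate 1, Flt1 passed in Atf4WT at -0.40 (limma adjusted p = 0.0469). Of the 10 tested VEGF ligands and receptors (Vegfa, Vegfb, Vegfc, Vegfd listed under its older symbol Figf, Pgf, Kdr, Flt1, Flt4, Nrp1 and Nrp2), 0 were called in Atf4WT by limma, edgeR or DESeq2 (2 at an unadjusted limma p under 0.05) and 1, Vegfa, in Atf4AKO iWAT. Of all tested genes, 31.9% were called in Atf4WT and 25.9% in Atf4AKO. The median log2 fold change of this VEGF group was -0.23 in Atf4WT and -0.086 in Atf4AKO, and 3 of the 10 lay above 0 in each genotype.

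The apelin genes moved apart. Apln, the ligand, was 234, 295 and 440.4 in Atf4WT at RT and 391, 347 and 571 in the cold, with overlapping groups and a log2 fold change of 0.45 (standard error 0.25, limma adjusted p = 0.196). In Atf4AKO mice it was 214, 281 and 339.5 at RT and 622, 527 and 593 in the cold, without overlap. Apln rose by 1.08 on the log2 scale (standard error 0.25, limma adjusted p = 0.00992), a 2.12-fold rise, and the call held without each of the 12 libraries, with adjusted p between 0.00525 and 0.0447. Aplnr, the receptor, was 962, 844 and 1076 in Atf4WT at RT and 551, 442 and 387 in the cold. All cold libraries lay below all RT libraries, and Aplnr fell by 1.07 on the log2 scale (standard error 0.29, limma adjusted p = 0.0169). Values in Atf4AKO mice were 878, 836 and 1467 at RT and 468, 910.4 and 418 in the cold. Atf4AKO cold replicate 1 lay within the RT range, and the fall of 0.86 (limma adjusted p = 0.0478) was at the edge of the threshold. The call was lost without each of 11 of the 12 libraries (limma adjusted p between 0.0518 and 0.160). Without Atf4AKO cold replicate 1 it held at -1.21 (limma adjusted p = 0.00758), and edgeR gave an adjusted p of 0.0657. In Atf4WT the call of Aplnr was lost without Atf4WT RT replicate 2 (limma adjusted p = 0.0507) and without Atf4WT cold replicate 2 (limma adjusted p = 0.0591). Without both muscle-rich libraries it was lost in Atf4WT (-1.12, limma adjusted p = 0.0512) and in Atf4AKO (-0.86, limma adjusted p = 0.0603), where these libraries enter only the shared estimate of spread.

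Among the angiopoietins, Angpt1 fell in both genotypes. It was 1575, 1220.3 and 1331 in Atf4WT at RT and 843, 805 and 784 in the cold, which is a fall of 0.75 on the log2 scale (standard error 0.14, limma adjusted p = 0.00285). In Atf4AKO mice it was 1392, 1461 and 1317 at RT and 1074, 765 and 1140.0 in the cold, and it decreased by 0.51 (standard error 0.14, limma adjusted p = 0.0237). The cold libraries lay below the RT libraries in each genotype. The call in Atf4WT held without each of the 12 libraries (limma adjusted p at most 0.0137). In Atf4AKO it was lost without Atf4AKO RT replicate 0, Atf4AKO RT replicate 1 or Atf4AKO cold replicate 1 (limma adjusted p between 0.0660 and 0.0700), and the value without the last was -0.33. Without the 2 libraries low in macrophage and fibroblast reads it was lost too, at the same value (limma adjusted p = 0.0827). Angpt2, the context-dependent antagonist, was the scarcest member, with 133, 157 and 178 in Atf4WT at RT and 154, 185 and 214 in the cold. In Atf4AKO mice its values were 144, 116 and 135 at RT and 207, 198 and 145 in the cold, where the groups just failed to overlap. Its log2 fold changes were 0.24 (limma adjusted p = 0.369) and 0.46 (limma adjusted p = 0.0963), and without Atf4AKO cold replicate 2 the latter was 0.62 (limma adjusted p = 0.0462). Tek, the receptor of both ligands, was 1834, 1902 and 2177 in Atf4WT at RT and 1522, 1240.2 and 1625 in the cold. The Atf4AKO values were 2002, 1677 and 1983 at RT and 1253, 1353 and 1895 in the cold. In Atf4WT all cold libraries lay below the RT libraries, with a log2 fold change of -0.44 that just missed the threshold (limma adjusted p = 0.0535). It was past it with DESeq2 (adjusted p = 0.0376) and with 75th percentile scaling (limma adjusted p = 0.0452). So it was without Atf4AKO cold replicate 0 or 2 (limma adjusted p = 0.0452 and 0.0205), libraries that enter only the shared estimate of spread. Over all removals of 1 library, the value of Tek in Atf4WT ran from -0.52 to -0.32 (limma adjusted p from 0.0205 to 0.183). In Atf4AKO mice the groups overlapped (-0.35, limma adjusted p = 0.122), and without Atf4AKO cold replicate 2 the value was -0.53 (limma adjusted p = 0.0214).

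Other genes of the angiopoietin and Tie group were lower in Atf4WT iWAT after cold exposure. Of 8 tested, 4 fell in Atf4WT and 1, Angpt1, in Atf4AKO mice, and the medians were -0.48 and -0.43. Of all tested genes, 14.9% and 11.0% fell. With the lymphocyte score as a covariate, 1 of the 8 was called in Atf4WT (lower) and 3 in Atf4AKO mice (1 higher and 2 lower). The share of all tested genes called in that fit is not given here. Angpt4, a further ligand of Tek, fell most in Atf4WT (-1.88, limma adjusted p = 0.0143), from 19.8 to 4.31 normalized counts on average, and was at -1.38 in Atf4AKO mice (limma adjusted p = 0.0596). Tie1, the orphan partner of Tek, fell by 0.51 (limma adjusted p = 0.0147). Ptprb, the endothelial phosphatase that acts on Tek, fell by 0.45 (limma adjusted p = 0.0115). The changes of Tie1 and Ptprb in Atf4AKO mice were -0.31 and -0.20, with limma adjusted p of 0.114 and 0.220.

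Of the endothelial surface genes, Cdh5 fell in Atf4WT iWAT and Pecam1 was not called. Cdh5 encodes VE-cadherin of the junctions between endothelial cells, and had counts of 5893, 5586 and 5769.9 in Atf4WT at RT and 3436, 4914 and 3596 in the cold. The groups did not overlap, and Cdh5 fell by 0.55 on the log2 scale (standard error 0.13, limma adjusted p = 0.00903). In Atf4AKO mice it was 5058, 4959 and 5661 at RT and 4039, 4852 and 3951 in the cold, again without overlap, with a log2 fold change of -0.29 (limma adjusted p = 0.121). The call in Atf4WT held without each single library (limma adjusted p at most 0.0355) and was lost without the 2 libraries with most muscle reads (-0.45, limma adjusted p = 0.0641). In Atf4AKO it was past the threshold without Atf4WT cold replicate 1 (limma adjusted p = 0.0421), a library that enters only the shared estimate of spread, and without the 2 libraries low in macrophage and fibroblast reads (-0.38, limma adjusted p = 0.0165). Pecam1 encodes the adhesion molecule CD31 and was 5291, 5456 and 5790.3 in Atf4WT at RT and 3921, 5572 and 5366 in the cold. Counts in Atf4AKO iWAT were 5112, 4878 and 4988 at RT and 4524, 5108 and 5152 in the cold. Atf4WT cold replicate 0, the second library rich in muscle reads, stood lowest, Atf4AKO cold replicate 0 lay below the RT libraries as well, and Atf4AKO cold replicate 2 lay just above the RT libraries of its genotype. The log2 fold changes were -0.17 (95% interval -0.43 to 0.090, limma adjusted p = 0.295) and -0.021 (-0.28 to 0.24, limma adjusted p = 0.911).

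The wider group of endothelial junction and identity genes did not move as one. Of 27 tested, 2 rose and 4 fell in Atf4WT iWAT, and 3 rose and 2 fell in Atf4AKO iWAT. Of all tested genes, 17.0% rose and 14.9% fell in Atf4WT, and 14.8% rose and 11.0% fell in Atf4AKO, and the counts were not tested against these shares. The median was -0.14 in Atf4WT and -0.021 in Atf4AKO, with 11 and 12 genes above 0. Cldn5, the claudin of endothelial tight junctions, fell, at -1.09 in Atf4WT (limma adjusted p = 0.00864) and -0.81 in Atf4AKO mice (limma adjusted p = 0.0385). Ramp2, the partner of the adrenomedullin receptor, fell, at -0.70 and -0.51 (limma adjusted p = 0.00246 and 0.0145). By contrast, Nos3, the endothelial nitric oxide synthase, rose by 0.44 in each genotype (limma adjusted p = 0.0173 and 0.0191). Eng, a coreceptor of TGF-β ligands, rose by 0.41 and 0.39 (limma adjusted p = 0.0177 and 0.0272). Emcn, a sialomucin of capillaries and veins, rose by 0.44 in Atf4AKO mice (limma adjusted p = 0.0189) and was at 0.26 in Atf4WT (limma adjusted p = 0.110). The dot plot of these genes shows that most lie between the called ones.

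**Figure D3:**
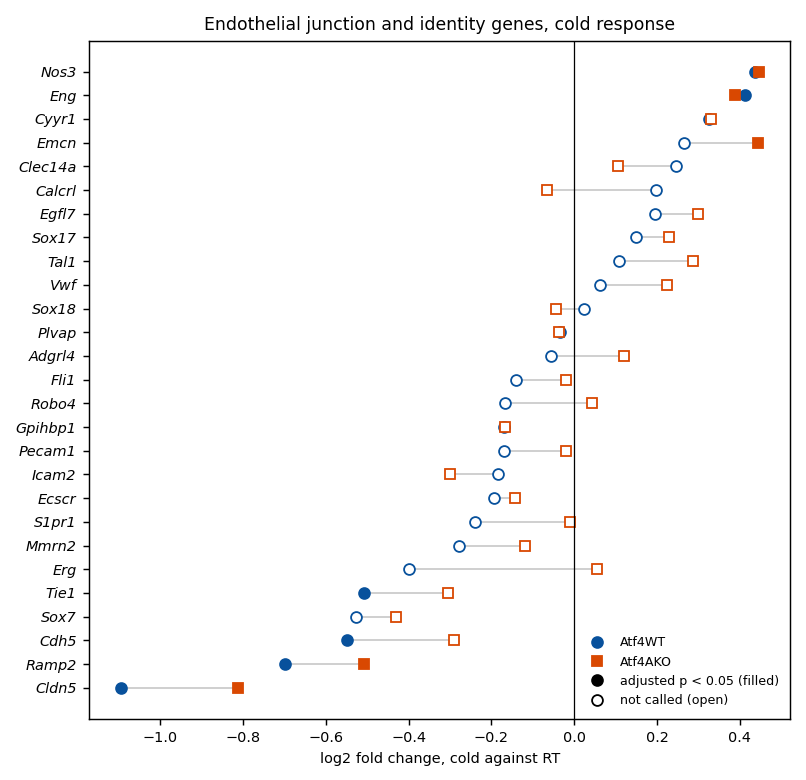
Log2 fold changes of cold against RT (horizontal axis) for the 27 tested endothelial junction and identity genes, ordered by the value in Atf4WT iWAT, with circles for Atf4WT and squares for Atf4AKO, filled where the limma adjusted p was under 0.05. Cldn5 and Ramp2 lie at the low end and Nos3 and Eng at the high end in both genotypes, and Pecam1 lies near the middle.

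In Atf4WT iWAT the lymphocyte score did not overlap between RT (3.85 to 7.23) and cold (7.43 to 9.89), so that cold and lymphocyte content cannot be told apart. With the lymphocyte score as a covariate, 0 members were called in Atf4WT iWAT by limma, and 3 had an unadjusted p under 0.05. The share of all tested genes called in that fit is not given here, so the loss of calls is not shown to be particular to the members. The values of the genes that had been called were then -0.77 for Angpt1 (limma adjusted p = 0.0606), -0.62 for Cdh5 (limma adjusted p = 0.0932) and -0.93 for Aplnr (limma adjusted p = 0.248). Vegfa moved to 0.17 in that fit, and Apln and Angpt2 turned to -0.17 and -0.23, none of which was called. In Atf4AKO iWAT, where the score overlapped between RT and cold, the values with the covariate were 1.20 for Apln and 0.94 for Vegfa, and both calls held. The call of Angpt1 held as well (-0.50, limma adjusted p = 0.0350), that of Aplnr was lost (-0.89, limma adjusted p = 0.0577), and Angpt2 was newly called (0.55, limma adjusted p = 0.0348). Angpt1, whose known sources include perivascular cells and fibroblasts, fell beside the fibroblast and progenitor markers, of which 1 of 8 in Atf4WT and 2 of 8 in Atf4AKO were called lower, with medians of -0.99 and -1.03. Their part in the result was not tested. When each member was expressed relative to the mean of the endothelial identity genes, Vegfa passed in Atf4WT as well (0.65, limma adjusted p = 0.0367). This scaling applies to every gene alike, and the median of all tested genes in Atf4WT moved with it from 0.0026 to 0.114. The step of Vegfa across the threshold is therefore not set apart from that shift. In Atf4AKO the calls of Angpt1 (-0.49, limma adjusted p = 0.121) and Aplnr (-0.85, limma adjusted p = 0.0595) were lost at values close to those without this scaling. This setting and the removal of library pairs were chosen after the data were seen.

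Between genotypes no member was called. At RT, 0 of 10 members passed either threshold, against 0.00746% of all genes at the adjusted threshold (1 gene) and 0.463% at that of the study. The log2 differences of Atf4AKO from Atf4WT at RT lay between -0.24 for Angpt2 and 0.10 for Aplnr. Pecam1 was the member without overlap at RT, with 5112 as the highest Atf4AKO value and 5291 as the lowest Atf4WT value (log2 difference -0.14, 95% interval -0.40 to 0.12). The groups did not overlap for 6.30% of all tested genes in this comparison. After cold exposure, 0 members passed either threshold, against 0.0298% (4 genes) and 6.4% of all genes. Vegfa was the member without overlap here, since the lowest Atf4AKO library had 13600.2 and the highest Atf4WT library 12927. Its log2 difference was 0.23 (95% interval -0.22 to 0.69, limma adjusted p = 0.708), and 16.5% of all genes did not overlap. The largest difference was that of Apln, 0.44 (-0.11 to 0.99, limma adjusted p = 0.544), followed by 0.31 for Aplnr and 0.27 for Angpt1. For Kdr, Pecam1, Tek and Angpt2 the differences lay within 0.03 of 0, with intervals that reached no further than 0.43 in either direction. By unadjusted p, 0 members were under 0.05 in either comparison, against 205 genes at RT and 1571 after cold exposure. edgeR and DESeq2 on the recovered reads also called 0 members in both. Of all genes, edgeR called 1 at RT and 3 after cold exposure, and DESeq2 called 4 at RT and 600 after cold exposure.

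The difference between the cold responses was tested directly. No member passed, as for all genes (0 called, 0.0%, with 928 genes at an unadjusted p under 0.05, 0 called by edgeR and 138 by DESeq2). At the threshold of the study, 0 members passed against 4.63% of all genes. The cold response of Apln was 0.63 larger in Atf4AKO than in Atf4WT mice on the log2 scale (95% interval -0.15 to 1.42, limma adjusted p = 0.858). For Vegfa the difference was 0.33 (-0.31 to 0.98), for Cdh5 0.26 (-0.15 to 0.66), for Angpt1 0.25 (-0.19 to 0.69) and for Angpt2 0.23 (-0.36 to 0.82). Both responses rest on their own RT libraries, and the calls of Vegfa and Apln in Atf4AKO iWAT alone are not a shown difference between genotypes. With the lymphocyte score in the fit, the difference was 1.38 for Apln and 0.77 for Vegfa, and neither was called (limma adjusted p = 0.921 for each).

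Ratios of 2 members within a library do not depend on the size factor of that library. The 6 pairs computed were chosen after the values were seen. With 3 libraries against 3 the smallest p of the two-sided exact permutation test is 0.1, so that no raw or adjusted p could pass 0.05. The Apln to Aplnr ratio per kb was 0.286, 0.411 and 0.481 in Atf4WT at RT and 0.835, 0.922 and 1.73 in the cold. In Atf4AKO mice it was 0.286, 0.394 and 0.272 at RT and 1.56, 0.680 and 1.67 in the cold. The cold libraries lay above the RT libraries in each genotype, by 2.87-fold and 3.87-fold between geometric means (exact permutation p = 0.1 each). The Angpt2 to Angpt1 ratio was 0.119, 0.181 and 0.189 in Atf4WT at RT and 0.258, 0.324 and 0.385 in the cold. For Atf4AKO mice the ratios were 0.146, 0.112 and 0.145 at RT and 0.272, 0.366 and 0.179 in the cold. This ratio of antagonist to agonist was 1.99-fold and 1.96-fold higher in the cold, without overlap (exact permutation p = 0.1 each). The Vegfa to Kdr ratio was 4.02 ± 1.05 at RT and 5.31 ± 0.638 in the cold in Atf4WT (SD, n = 3), with overlap (exact permutation p = 0.2). In Atf4AKO mice it was 3.63 ± 0.730 at RT and 6.34 ± 0.294 in the cold, without overlap (exact permutation p = 0.1), and it was 1.20-fold higher than in cold-exposed Atf4WT libraries, again without overlap. Cdh5 stood at 1.55 ± 0.0909 times Pecam1 at RT and at 1.20 ± 0.179 in the cold in Atf4WT, and at 1.55 ± 0.115 and 1.29 ± 0.139 in Atf4AKO mice. In both genotypes all cold libraries lay below all RT libraries for this ratio. The Kdr to Flt1 ratio was 1.32-fold higher in the cold in Atf4WT without overlap (exact permutation p = 0.1) and overlapped in Atf4AKO mice (exact permutation p = 0.3), and the Tek to Pecam1 ratio overlapped in both.

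**Figure D4:**
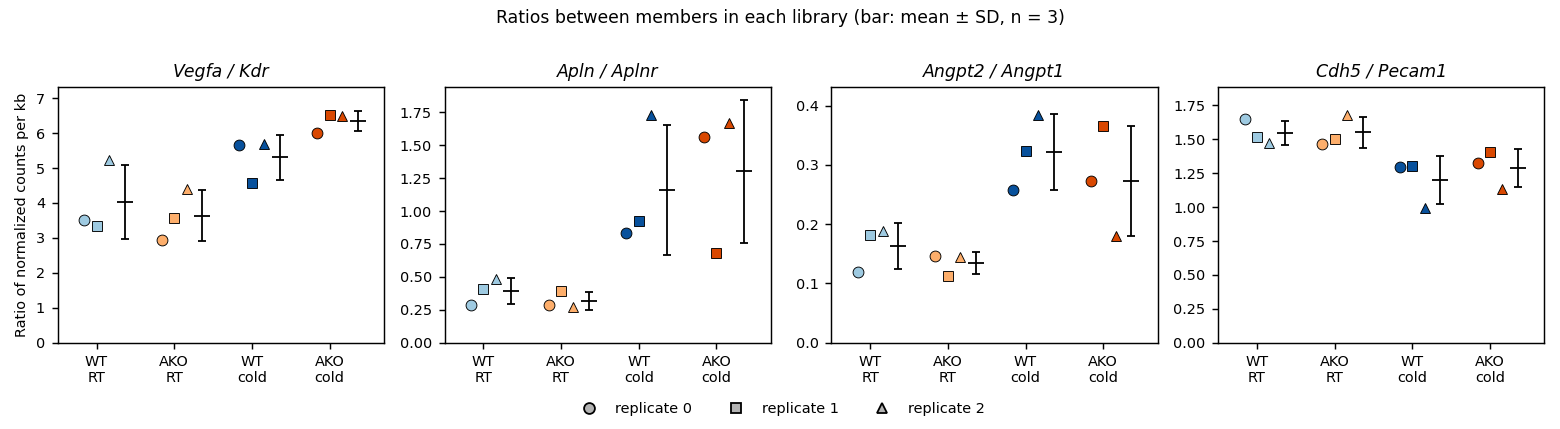
Ratios of normalized counts per kb (vertical axes, linear from 0) between pairs of members in each of the 12 libraries by group, with symbols for the replicate and bars for mean ± SD (n = 3). The Apln to Aplnr and Angpt2 to Angpt1 ratios are higher and the Cdh5 to Pecam1 ratio lower in all cold-exposed libraries than in the RT libraries of the same genotype.

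Genes that act beside these members in vessels were counted by group, each set against a median of all tested genes of 0.0026 in Atf4WT and -0.032 in Atf4AKO mice and against the 17.0% that rose and 14.9% that fell in Atf4WT and the 14.8% and 11.0% in Atf4AKO mice. In the tip cell group, which holds genes of the leading cells of a sprout and of the matrix they lay down, 1 of 13 rose and 3 fell in each genotype. The 3 that fell were genes of the basement membrane, and Col4a1, a further basement membrane gene on this list, was not among them. Nid2 fell, at -1.27 and -0.79, Lama4 at -0.96 and -0.78 and Col4a2 at -0.70 and -0.47 in Atf4WT and Atf4AKO mice (limma adjusted p at most 0.0358). The gene that rose was Apln in Atf4AKO and, in Atf4WT, the chemokine receptor gene Cxcr4 (1.46, limma adjusted p = 0.0211), which lymphocytes also express and whose libraries carried more lymphocyte markers. Of 12 pericyte and smooth muscle genes, 0 rose, and 2 fell in Atf4WT and 3 in Atf4AKO mice. The group did not fall as a whole, with medians of -0.16 in Atf4WT and 0.12 in Atf4AKO mice and 4 and 7 genes above 0. Rgs5, a pericyte gene, fell, at -1.15 and -1.09 (limma adjusted p = 0.000430 and 0.000642), and Notch3, the Notch receptor of mural cells, at -0.33 in each. Among 10 genes of the vascular Notch pathway, Heyl, a target expressed in mural cells, fell in Atf4WT (-0.75, limma adjusted p = 0.00755) and 0 of 10 were called in Atf4AKO mice by limma, with 2 at an unadjusted p under 0.05, 0 called by edgeR and 1 by DESeq2. Of 10 arterial and venous genes, 0 were called in either genotype by limma, edgeR or DESeq2, and 0 had an unadjusted limma p under 0.05. Of 5 lymphatic endothelial genes, 0 were called by any of these tools in either genotype, and 1 had an unadjusted limma p under 0.05 in each.

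Hypoxia-inducible factor (HIF) genes were of both directions. Of 20 tested, 4 rose and 3 fell in Atf4WT and 3 rose and 3 fell in Atf4AKO mice, with medians of 0.11 and 0.13. Egln3, a prolyl hydroxylase induced through HIF, rose by 1.55 and 1.64 (limma adjusted p = 0.000132 and 0.000117), and Pgk1, a glycolytic enzyme, by 1.13 and 1.22 (limma adjusted p = 0.000108 and 8.37e-05). Pfkfb3 rose by 0.46 and 0.53 (limma adjusted p = 0.0267 and 0.0177). Other genes known as HIF targets fell, with Bnip3 at -0.93 and -0.53, Ndrg1 at -0.86 and -0.71 and P4ha1 at -0.48 and -0.50 (limma adjusted p at most 0.0494). Of 10 angiogenesis inhibitors, 1 rose and 4 fell in Atf4WT and 2 fell in Atf4AKO mice, with medians of -0.77 and -0.31. Serpinf1, which encodes the antiangiogenic factor PEDF, fell, at -1.28 and -1.16 (limma adjusted p = 0.00945 and 0.0183), and Timp3, a tissue inhibitor that also blocks Kdr, at -0.85 and -0.70 (limma adjusted p = 0.00236 and 0.00747). Col18a1, the source of endostatin, fell by 1.32 in Atf4WT (limma adjusted p = 0.00755) and was at -0.77 in Atf4AKO (limma adjusted p = 0.0820). Other secreted factors were lower or not called, with 0 of 10 higher and 3 lower in each genotype. Fgf2 fell, at -1.68 and -1.70 (limma adjusted p = 0.00408 and 0.00468) and Angptl2 at -0.80 and -0.91 (limma adjusted p = 0.00755 and 0.00494). Many of these secreted and matrix genes are expressed by fibroblasts. Of the 8 fibroblast and progenitor markers, 1 was called lower in Atf4WT and 2 in Atf4AKO mice, with medians of -0.99 and -1.03. A link between the falls of these genes and of the markers was not tested.

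The counts of these groups in Atf4WT iWAT moved with the lymphocyte score as a covariate. The score did not overlap between RT and cold in that genotype, so that cold and lymphocyte content cannot be told apart there. The share of all tested genes called with the covariate is not given here. The changes in count below are therefore not shown to be particular to these groups. The genes called went from 5 to 1 (lower) of the angiogenesis inhibitors, from 3 to 0 of the other secreted factors, from 7 to 4 of the HIF genes, from 4 to 2 of the tip cell genes, from 1 to 0 of the Notch genes and from 6 to 2 of the endothelial identity genes. The pericyte and smooth muscle genes stayed at 2 called, now 1 higher and 1 lower, and 1 gene of the VEGF group was called lower. In Atf4AKO mice the same groups went from 2 to 2 for inhibitors, 3 to 3 for secreted factors, 6 to 5 for HIF genes, 4 to 5 for tip cell genes, 0 to 1 for Notch genes, 5 to 4 for identity genes and 3 to 4 for pericyte genes. Arterial, venous and lymphatic genes had 0 called with and without the covariate in both genotypes.

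Over the 12 libraries, the 5 genes whose profiles lay nearest to Vegfa among 11842 genes with a mean of at least 50 were Dgkq, Zfp579, Srek1, Setd1a and Mbd6. Their root mean square distance from the Vegfa profile, after each gene was centred on the log2 scale, was between 0.121 and 0.135, against a root mean square of 0.43 for the Vegfa profile itself. Nearest to Pecam1 were Atp11b, Ahcy, Fli1, Map3k3 and Mtmr12, at 0.0791 to 0.0942 with a profile of 0.143. Fli1, a transcription factor of endothelial and blood cells, is also in the endothelial identity group.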

How the data were processed

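Strand-specific libraries were made from polyadenylated RNA extracted with TRIzol and sequenced on a DNBSEQ instrument. According to the methods and the labels, the authors cleaned the reads (SOAPnuke), aligned them (STAR, mm10), counted those that mapped uniquely (featureCounts) and divided the counts by DESeq2 size factors, so the deposited values are normalized counts (a signal unit). Versions and strand setting are not given in the sources used here. Dividing each library by its smallest value gave whole reads for 100% of values within 0.01. Values were tested as log2(normalized count + 1) with limma 3.58.1 in R 4.3.3 (trended empirical Bayes, 4 group means) for 13404 genes with a mean of at least 10, leaving out 755. P-values were adjusted by Benjamini-Hochberg over all tested genes. edgeR 4.0.16 and DESeq2 1.42.0 on the recovered reads were alternatives. The fit was tested on simulated data with changes larger than those of the members, so that test does not bear on changes of their size. The biological replicates are those of the labels. Age is not stated for these libraries. Members were named by rule, lists were described by counts, and the named list genes were those past a threshold. Members and lists were chosen with earlier results of these data known.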

Additional observations from a re-analysis of the deposited data

How the results depend on the processing

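The results were recomputed under 24 settings, of which the removal of library pairs and the level relative to endothelial identity genes were chosen after the data were seen. Over all settings, 1079 values kept direction and side of the threshold, 17 gained a call, 32 lost one and 62 turned sign. Fold changes here are log2. The members called in Atf4WT numbered 3, with 2 to 4 on leaving out 1 library and 0 with the lymphocyte score, and those past the study's threshold 2, with 2 to 4 on leaving out 1 library and 4 without the 2 libraries with most muscle reads. In Atf4AKO 4 were called, with 1 to 5 on leaving out 1 library, 2 in the fit of the 2 groups compared and 2 relative to endothelial identity genes. Past the study's threshold, 0 members between the cold-exposed genotypes became 1 with the lymphocyte score and 0 to 1 on leaving out 1 library. For the difference of responses 0 became 1 with the replicate block, 2 with the lymphocyte score and 0 to 1 on leaving out 1 library. The cause of these changes was not tested, and the share of all genes called in each setting is not given here.

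Deviations of same-numbered libraries from their group means correlated at -0.189 to 0.389 (median 0.0967, 18 pairs). Libraries of different numbers correlated at -0.475 to 0.312 (median -0.0430, 36 pairs). The ranges overlapped with a higher median for same numbers, which does not settle whether the numbers pair animals. They were not taken to do so in the main fit. With the replicate block Tek was called in Atf4WT (limma adjusted p = 0.0147) and Atf4AKO (limma adjusted p = 0.0407), and Aplnr was lost in Atf4AKO (limma adjusted p = 0.0626).

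Values that turned sign were not called in either form. Between genotypes at RT, without the libraries with most muscle reads, Apln was 0.0541, Flt1 -0.0289, Tek 0.0105 and Vegfa 0.1079, and Flt1 was -0.0004 with 75th percentile scaling and -0.0 with edgeR. Between genotypes in the cold, the lymphocyte score gave 0.5681 for Angpt2 and 0.0431 for Kdr. edgeR gave 0.0027 for Angpt2, and DESeq2 -0.0074 for Pecam1. 75th percentile scaling gave -0.0373 for Pecam1 and -0.0226 for Tek. The level relative to endothelial genes gave -0.0421 for Pecam1 and -0.0274 for Tek, and removal of the muscle-rich pair -0.1525 for Pecam1. Without the pair low in macrophage and fibroblast reads, Aplnr was -0.0622, Kdr 0.0 and Tek -0.0295. In the Atf4AKO cold response, Kdr was -0.0154 with 75th percentile scaling and -0.035 without the pair low in macrophage reads, and Pecam1 0.026 with the lymphocyte score. In Atf4WT, the lymphocyte score gave -0.2322 for Angpt2 and -0.1703 for Apln, and removal of the muscle-rich pair 0.0254 for Pecam1. For the difference of responses, Aplnr was -0.1629 without the pair low in macrophage reads, Kdr 0.0025 with the lymphocyte score, Pecam1 -0.0464 without the muscle-rich pair and Tek -0.0143 relative to endothelial genes.

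On leaving out 1 library, the Atf4AKO cold response ranged from -0.035 to 0.1072 for Kdr and -0.0544 to 0.0393 for Pecam1. The genotype difference at RT ranged from -0.3091 to 0.1079 for Vegfa, -0.0438 to 0.1179 for Kdr, -0.0289 to 0.0529 for Flt1, -0.1132 to 0.0197 for Tek, -0.0595 to 0.1243 for Angpt1, -0.3998 to 0.0541 for Apln and -0.1574 to 0.2474 for Aplnr. In the cold it ranged from -0.1096 to 0.0802 for Kdr, -0.0133 to 0.2449 for Flt1, -0.1525 to 0.1009 for Pecam1, -0.1585 to 0.1398 for Tek, -0.131 to 0.1508 for Angpt2 and -0.0416 to 0.519 for Aplnr. The difference of responses ranged from -0.1481 to 0.0417 for Kdr, -0.0221 to 0.2361 for Flt1, -0.0105 to 0.243 for Pecam1, -0.0952 to 0.203 for Tek and -0.1423 to 0.4626 for Aplnr.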
